A study of Mus musculus with 18 samples.

Results

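The 4 genes described here, Pou5f1, Sox2, Nanog and Sall4, encode the core transcription factors of pluripotency. They were chosen by name from the 56551 genes of the deposited table, and all 4 were among the 17842 genes tested. RNA was measured in mouse embryonic stem cells of 6 genotypes with 3 libraries each: WT, Ring1a-KO, Ring1b-KO, Ring1a/b-dKO (both Ring1 genes), and the combined knockouts Pcgf1/3/5/6-/- (written Pcgf-4KO) and Pcgf1/2/3/4/5/6-/-, for which Pcgf-6KO stands. The labels give no other allele, agent or time for any group, WT included. The sources used here do not give the parental line, the medium, the way the alleles were made, the number of clones per genotype or whether replicate libraries stem from separate cultures. P-values therefore measure only the spread between these libraries, which may be technical.

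Pou5f1 (the gene of Oct4, a POU-domain factor) and Sox2 (an HMG-box factor) bind DNA as a pair at many enhancers of embryonic stem cells, including their own. Nanog, a homeodomain factor, strengthens self-renewal and is known to vary between cells of a culture, and Sall4, a zinc-finger protein, binds many of the same sites and represses differentiation genes. Polycomb repressive complex 1 (PRC1) is the enzyme complex that ubiquitylates histone H2A. Ring1a (gene Ring1) or Ring1b (gene Rnf2) is its catalytic subunit, and each complex holds a single Pcgf protein (the protein Pcgf4 comes from the gene Bmi1). Complexes with Pcgf2 or Pcgf4 can be canonical, while those with Pcgf1, Pcgf3, Pcgf5 or Pcgf6 are variant PRC1, so that Pcgf-4KO lacks the genes of the last kind and Pcgf-6KO those of both. PRC1 with Pcgf1 is recruited to CpG-rich promoters.

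The promoters of the factors differ in base composition, and the sequences before the transcription start are shown because enhancers and promoters of these genes are where Oct4 and Sox2 act. They are RefSeq sequences of GRCm38.p6 on the plus strand, 5′ to 3′. Sequences for 3 of the 4 genes were matched by symbol: Nanog at chr6:122707239-122707488, Sox2 at chr3:34649745-34649994 and Pou5f1 at chr17:35505782-35506017. Capitals mark every match, on either strand, to ATGCAAA (the octamer without its last base, the letters Oct4 reads), to CATTGT (a Sox motif) and to the joined Oct4-Sox2 motif, which is CATTGT, any base, and then ATGCAAA.
Nanog: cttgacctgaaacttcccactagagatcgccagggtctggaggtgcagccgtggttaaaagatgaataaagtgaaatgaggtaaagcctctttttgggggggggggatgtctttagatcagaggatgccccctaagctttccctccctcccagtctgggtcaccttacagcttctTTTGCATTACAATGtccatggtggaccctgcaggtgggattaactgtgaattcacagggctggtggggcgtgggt
Sox2: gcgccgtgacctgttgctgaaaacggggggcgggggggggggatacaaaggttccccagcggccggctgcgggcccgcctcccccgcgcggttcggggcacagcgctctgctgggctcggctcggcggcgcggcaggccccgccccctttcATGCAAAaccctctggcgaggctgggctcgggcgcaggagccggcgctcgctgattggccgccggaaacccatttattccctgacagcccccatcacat
Pou5f1: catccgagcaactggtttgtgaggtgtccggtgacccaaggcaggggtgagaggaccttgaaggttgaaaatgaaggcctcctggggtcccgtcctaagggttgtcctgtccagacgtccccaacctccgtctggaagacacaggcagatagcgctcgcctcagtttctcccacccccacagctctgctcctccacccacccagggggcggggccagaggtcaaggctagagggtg

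The Nanog window holds the joined motif on the reverse strand, 75 to 62 bases before the start, and its octamer and Sox parts are the other matches of that window. Of 32851 windows of 250 bases searched, 2 (0.00609%) hold the joined motif, and both belong to Nanog, the only gene of 27025 searched with a match. The Sox2 window holds the octamer letters 99 to 93 bases before its RefSeq start, as do 4.12% of all windows, and CATTGT stands in 10.7%. The Pou5f1 window holds none of these letters. The Sox2 window is 72% G and C with 27 CpG, more CpG than 91.4% of windows. The Pou5f1 window, over its full 250 bases, is 62% G and C with 8 CpG, and the Nanog window 52% with 3, against medians of 52.4% and 6 over all windows. A match is a description of these letters and no evidence of binding.

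Values are TPM, a transcript's share of a library per length, scaled to a total of 1000000. Depth is unknown, since TPM keeps no read counts. Differences are on the log2(TPM + 1) scale from a limma fit over all genes and libraries, with 0.05 as the limit of the adjusted p for a call. The median of all tested genes lay above WT by 0.01 in Ring1a-KO, 0.13 in Ring1b-KO, 0.28 in Ring1a/b-dKO, 0.25 in Pcgf-4KO and 0.33 in Pcgf-6KO, so the fall of a factor relative to the typical gene was larger by these amounts. The share of called genes that were higher was 67.0%, 75.5%, 72.5% and 69.6% in the last 4, and between 50.2% and 53.0% under median ratio scaling and between 46.4% and 49.6% under quantile normalization. As a check of the labels, Pcgf6 fell from 53.01 ± 0.26 TPM (WT) to 0.06 ± 0.05 (Pcgf-4KO) and 10.6 ± 0.78 (Pcgf-6KO). Rnf2 read 71.3 ± 5.24 TPM in WT, 49.4 ± 3.13 in Ring1b-KO and 22.8 ± 2.94 in Ring1a/b-dKO, while Ring1 was called neither in Ring1a-KO (4.05 ± 1.31 against 7.21 ± 0.18 TPM in WT) nor in Ring1a/b-dKO. Pcgf3 was called in neither Pcgf knockout, and Bmi1 and Pcgf5 were called higher in Pcgf-6KO, so RNA levels alone do not check these labels. Mitochondrial transcripts took 6.38% to 6.88% of TPM in WT and 3.58% to 4.65% in Pcgf-6KO, and the calls of all 4 factors in Pcgf-6KO also held with nuclear protein-coding genes only. Transcripts of small RNA genes took 2.883% and 1.318% of TPM in Ring1a-KO replicates 2 and 3 and 0.2104% to 0.6662% in the other libraries. With replicate 1 as the only Ring1a-KO library, its spread taken to be that of the other groups, Nanog differed from WT by 0.37 (adjusted p = 0.00152), an alternative chosen after seeing the data. That fit has too little power to say anything of the 3 factors that were not called.

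Pou5f1 (ENSMUSG00000024406, GRCm38 chromosome 17, 35506018 to 35510772, plus strand, protein-coding) was the most abundant of the 4 in every library. It read 1116, 1101 and 1119.7 TPM in WT (1112 ± 9.62, mean ± SD, n = 3, as for all groups below). The Ring1a-KO libraries read 1100.1, 1022 and 1029 TPM (1050.2 ± 43.3), and the Ring1b-KO libraries 1011, 989 and 1039.7 TPM (1013 ± 25.4). These 9 libraries lay within a narrow band, with every WT library above every single-knockout library. The Ring1a/b-dKO libraries fell to 612, 583 and 581 TPM (592 ± 17.3), and the Pcgf-4KO libraries to 627, 616 and 620.2 TPM (621 ± 5.44). Pcgf-6KO was lowest, at 427, 422 and 386 TPM (412 ± 22.3), which is 37.0% of the WT mean. None of these 9 libraries reached a WT or single-knockout library.

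Against WT, Pou5f1 differed by −0.08 ± 0.04 (log2 difference ± SE; 95% interval −0.17 to 0.0015, adjusted p = 0.151) in Ring1a-KO, which was not called. It fell by 0.13 (adjusted p = 0.0105) in Ring1b-KO, a call lost under quantile normalization (−0.036, adjusted p = 0.485). The difference was −0.91 ± 0.04 (adjusted p = 3.10e-11) in Ring1a/b-dKO, −0.84 ± 0.04 (adjusted p = 7.21e-11) in Pcgf-4KO and −1.43 ± 0.04 (adjusted p = 7.76e-14) in Pcgf-6KO. In descending order the groups stood WT, Ring1a-KO, Ring1b-KO, Pcgf-4KO, Ring1a/b-dKO and Pcgf-6KO. The first 2 neighbours in that order were not called apart, nor were Ring1a-KO and Ring1b-KO (interval −0.14 to 0.03) or Pcgf-4KO and Ring1a/b-dKO (interval −0.02 to 0.15). Among all genes of a library, ranked by TPM, Pou5f1 stood at place 140 to 143 in WT and 328 to 348 in Pcgf-6KO.

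Sox2 (ENSMUSG00000074637, chromosome 3, 34650405 to 34652461, plus strand, protein-coding) read 253, 247 and 240.1 TPM in WT (247 ± 6.43). The Ring1a-KO libraries spread around these values at 258, 233 and 284 TPM (258 ± 25.2), and the Ring1b-KO libraries lay below WT at 206, 205 and 223 TPM (211 ± 9.90). Of the 4 factors, Sox2 had the lowest share of its WT level in Pcgf-6KO. It read 138, 135 and 136 TPM in Ring1a/b-dKO (136.0 ± 1.46) and 168, 176 and 173 TPM in Pcgf-4KO (172 ± 4.22). In Pcgf-6KO the libraries read 45.9, 46.0 and 48.4 TPM (46.7 ± 1.39), 18.95% of the WT mean. The Pcgf-6KO libraries stood far below every other library, and Ring1a/b-dKO and Pcgf-4KO did not overlap with each other or with WT.

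The difference of Sox2 from WT was 0.06 ± 0.06 in Ring1a-KO (95% interval −0.06 to 0.18, adjusted p = 0.487), which was not called. It was −0.22 ± 0.06 (adjusted p = 0.00355) in Ring1b-KO, −0.85 ± 0.06 (adjusted p = 2.78e-09) in Ring1a/b-dKO and −0.52 ± 0.06 (adjusted p = 8.82e-07) in Pcgf-4KO. In Pcgf-6KO it was −2.37 ± 0.06 (adjusted p = 1.14e-14). The descending order was Ring1a-KO, WT, Ring1b-KO, Pcgf-4KO, Ring1a/b-dKO and Pcgf-6KO, and every neighbouring pair but the first was called apart. By rank Sox2 moved from place 533 to 563 in WT to place 3356 to 3487 in Pcgf-6KO. Sox2ot, a long noncoding RNA gene that overlaps Sox2, lay under the testing filter at 0.26 to 1.41 TPM over all libraries.

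**Figure D1:**
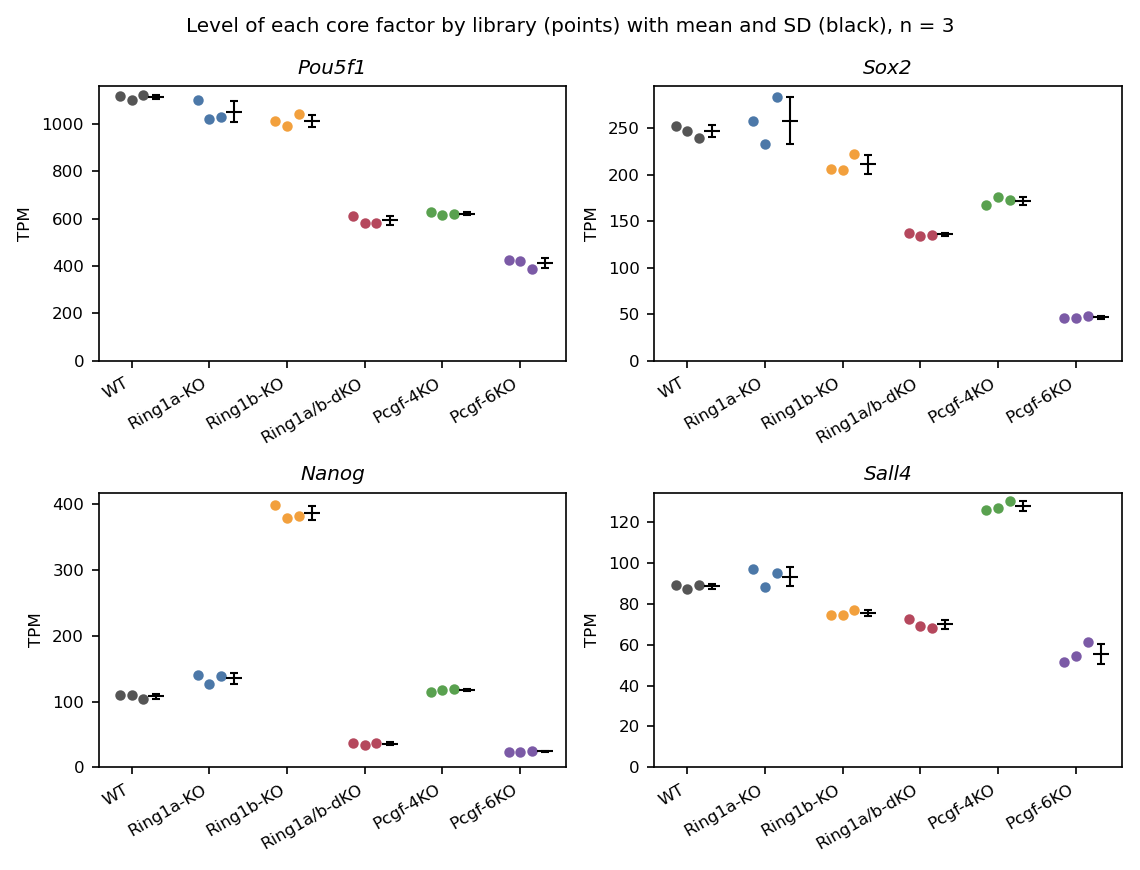
TPM of Pou5f1, Sox2, Nanog and Sall4 in each library (coloured points, 3 per genotype) with the group mean and SD in black; each panel has its own axis from 0. Pcgf-6KO is the lowest group of all 4 genes, Nanog is highest in Ring1b-KO at 387 TPM, and Sall4 is highest in Pcgf-4KO at 128 TPM.

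Nanog (ENSMUSG00000012396, chromosome 6, 122707489 to 122714633, plus strand, protein-coding) had the widest range of the 4, as the ratio of its highest to its lowest group mean. It read 109.5, 110.3 and 104 TPM in WT (108 ± 3.502), and 140.1, 126 and 139 TPM in Ring1a-KO (135 ± 7.79). In Ring1b-KO it rose to 399, 379 and 382 TPM (387 ± 10.6), 3.58 times the WT mean. All Ring1b-KO libraries were thus far above all others. In Ring1a/b-dKO it fell to 37.4, 34.1 and 37.2 TPM (36.3 ± 1.86), 33.6% of WT. Pcgf-4KO stayed near WT at 115, 118 and 119 TPM (117 ± 2.102), and Pcgf-6KO read 23.7, 24.2 and 25.5 TPM (24.5 ± 0.95), 22.7% of WT. Only Pcgf-4KO of the 5 knockouts lay within 10 TPM of WT by its mean, although its libraries did not overlap with those of WT.

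The difference of Nanog from WT was 0.32 ± 0.05 in Ring1a-KO (adjusted p = 2.15e-04), 1.83 ± 0.05 in Ring1b-KO (adjusted p = 2.24e-13), −1.55 ± 0.05 in Ring1a/b-dKO (adjusted p = 7.01e-13) and −2.097 ± 0.05 in Pcgf-6KO (adjusted p = 9.73e-15). In Pcgf-4KO Nanog was called higher by 0.12 ± 0.05 (adjusted p = 0.0385) but was lower by median ratio scaling (−0.20, adjusted p = 3.03e-04) and by quantile normalization (−0.0095, adjusted p = 0.866), so its direction there depended on the scaling. The call was also lost without WT replicate 1 or 3 or Pcgf-4KO replicate 2 or 3 (adjusted p = 0.0548, 0.146, 0.0819 and 0.105). The descending order was Ring1b-KO, Ring1a-KO, Pcgf-4KO, WT, Ring1a/b-dKO and Pcgf-6KO, with every neighbouring pair called apart. By rank Nanog stood at place 1243 to 1322 in WT, 322 to 346 in Ring1b-KO and 5542 to 5812 in Pcgf-6KO. The pseudogenes Nanog-ps1 and Nanog-ps2 were listed at 0 in every library.

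Sall4 (ENSMUSG00000027547, chromosome 2, 168748332 to 168767943, minus strand, protein-coding) had the narrowest range by the same ratio. It read 89.2, 86.9 and 89.1 TPM in WT (88.4 ± 1.27), 96.8, 87.9 and 94.8 TPM in Ring1a-KO (93.2 ± 4.66) and 74.6, 74.6 and 77.0 TPM in Ring1b-KO (75.4 ± 1.36). Ring1a/b-dKO read 72.3, 69.2 and 68.2 TPM (69.9 ± 2.14), below all of these. Sall4 was the factor that was higher in Pcgf-4KO under every scaling, with libraries at 126, 127 and 130.2 TPM (128 ± 2.36), 144% of WT. In Pcgf-6KO it read 51.4, 54.2 and 61.0 TPM (55.5 ± 4.97), 62.8% of WT. The Pcgf-4KO libraries were above and the Pcgf-6KO libraries below every other library.

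The difference of Sall4 from WT was 0.07 ± 0.05 in Ring1a-KO (95% interval −0.04 to 0.19, adjusted p = 0.362), which was not called, and −0.23 ± 0.05 in Ring1b-KO (adjusted p = 0.00218). It was −0.33 ± 0.05 in Ring1a/b-dKO (adjusted p = 4.76e-05) and −0.66 ± 0.05 in Pcgf-6KO (adjusted p = 1.72e-08). In Pcgf-4KO it was 0.52 ± 0.05 (adjusted p = 4.16e-07), with 0.20, 0.39 and 0.50 under median ratio scaling, quantile normalization and scaling to nuclear protein-coding genes. The descending order was Pcgf-4KO, Ring1a-KO, WT, Ring1b-KO, Ring1a/b-dKO and Pcgf-6KO. Ring1a-KO and WT were not called apart, nor were Ring1b-KO and Ring1a/b-dKO (−0.11, interval −0.22 to 0.01, adjusted p = 0.0932), although the latter pair was called under median ratio scaling (−0.31) and quantile normalization (−0.22). By rank Sall4 stood at place 1548 to 1581 in WT, 1134 to 1190 in Pcgf-4KO and 2801 to 3020 in Pcgf-6KO.

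**Figure D2:**
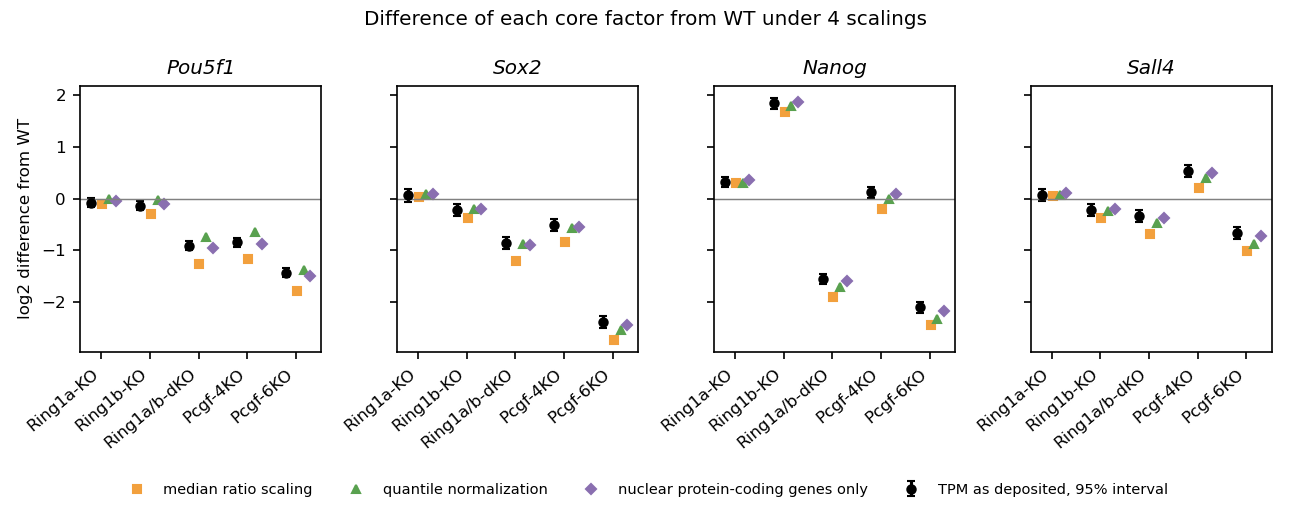
Log2 difference of each factor from WT in the 5 knockout genotypes: black points are the fit to TPM as deposited with 95% intervals, and coloured points the same fit under 3 other scalings. Nanog in Pcgf-4KO lies at 0.12 for TPM and −0.20 under median ratio scaling, whereas Sall4 in Pcgf-4KO lies above 0 under all 4 scalings.

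Read by genotype, all of these comparisons share the WT libraries. In Ring1a-KO 1 of 4 factors was called, Nanog, which was higher, against 23.1% of all tested genes called in either direction (12.3% higher, 10.8% lower). In Ring1b-KO all 4 were called, where 51.8% of all genes were: Nanog rose while Pou5f1, Sox2 and Sall4 fell, with 34.7% of genes higher and 17.1% lower. In Ring1a/b-dKO all 4 fell, as did 15.8% of all genes, with 48.6% higher and 64.4% called in all. In Pcgf-4KO Pou5f1 and Sox2 fell, Sall4 rose and Nanog was called higher with the limit given above, where 65.0% of genes were called, 47.1% higher and 17.9% lower. In Pcgf-6KO all 4 fell, as did 22.5% of genes, with 51.7% higher and 74.2% called in all. In bulk RNA, fewer cells with a transcript and less transcript per cell cannot be told apart. The median difference of the tested genes on each factor's own chromosome departed from the median of all genes by −0.063 to 0.053 in the 4 comparisons other than Pcgf-6KO, and there by −0.177 to −0.020.

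For Pou5f1, Sox2 and Nanog, the difference between Ring1b-KO and WT was unlike that between Ring1a/b-dKO and Ring1a-KO. Differences between lines or clones cannot be told apart from those of genotype here. Nanog was higher by 1.83 in Ring1b-KO than in WT and differed by −1.87 ± 0.05 (adjusted p = 1.07e-13) between Ring1a/b-dKO and Ring1a-KO. The sum of the differences in the single knockouts would be 2.15, against a measured −1.55 in Ring1a/b-dKO. The interaction, which is the departure from that sum, was −3.70 ± 0.07 (95% interval −3.85 to −3.55, adjusted p = 1.82e-14) for Nanog. Pou5f1 and Sox2 were alike in size: the single differences summed to −0.22 and −0.16, the measured differences were −0.91 and −0.85, and both interactions were −0.69 (SE 0.06 and 0.08, adjusted p = 1.41e-07 and 4.22e-06). For Sall4 the interaction was −0.18 ± 0.08 (95% interval −0.34 to −0.02, adjusted p = 0.0576), not called, but called under median ratio scaling (−0.35), quantile normalization (−0.29) and without Ring1a-KO replicate 2 (−0.22, adjusted p = 0.0252). Against Ring1a-KO all 4 factors were lower in the double knockout, as were 15.3% of genes (63.0% in either direction), and against Ring1b-KO all but Sall4 were, as were 18.8% of genes (59.9% in either direction). Of all genes 48.7% had a called interaction, 15.5% with a lower double knockout than the sum.

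**Figure D3:**
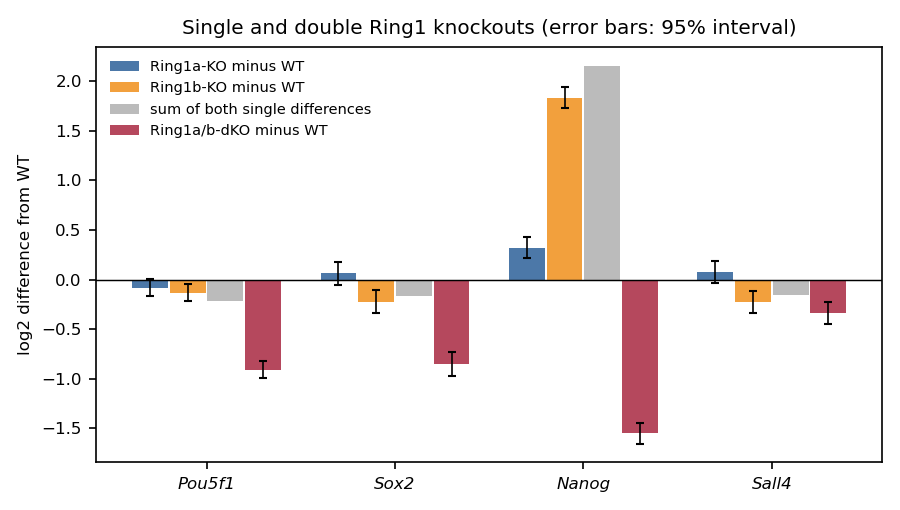
Bars give the log2 difference of each factor from WT in Ring1a-KO (blue), Ring1b-KO (orange) and Ring1a/b-dKO (red), with 95% intervals, beside the sum of the differences in the single knockouts (grey). For Nanog the sum is 2.15 and the measured double knockout −1.55, and for Pou5f1 and Sox2 the double knockout lies below the sum by 0.69.

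Among the combined knockouts, Pcgf-4KO and Ring1a/b-dKO differed in 3 of 4 factors, all higher in Pcgf-4KO, where 15.3% of all genes were (37.4% in either direction). The differences were 1.67 ± 0.05 for Nanog (adjusted p = 2.05e-12), 0.86 ± 0.05 for Sall4 (adjusted p = 1.50e-08) and 0.34 ± 0.06 for Sox2 (adjusted p = 2.37e-04), while Pou5f1, at 0.07, was not called (adjusted p = 0.199). All 4 factors were lower in Pcgf-6KO than in Pcgf-4KO, as were 24.0% of genes (52.8% in either direction). The differences were −2.22 for Nanog, −1.86 for Sox2, −1.19 for Sall4 and −0.59 for Pou5f1. Pcgf-6KO was also lower than Ring1a/b-dKO in all 4, as were 29.6% of genes (58.0% in either direction), by −1.52 ± 0.06 for Sox2 (adjusted p = 1.16e-11), −0.55 ± 0.05 for Nanog (adjusted p = 1.78e-07), −0.52 ± 0.04 for Pou5f1 (adjusted p = 3.37e-08) and −0.33 ± 0.05 for Sall4 (adjusted p = 8.01e-05). Between Ring1b-KO and Ring1a-KO, Nanog was higher by 1.51 and Sox2 and Sall4 lower by values of −0.28 and −0.30, with Pou5f1 not called, where 51.0% of genes were called, 33.9% higher and 17.1% lower.

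Ratios between the factors within a library do not change when that library is multiplied by a scaling factor. Nanog stood at 9.70% of Pou5f1 in WT, at 12.9% (Ring1a-KO) and 38.2% (Ring1b-KO) in the single knockouts, and at 6.12% in Ring1a/b-dKO, 18.9% in Pcgf-4KO and 5.94% in Pcgf-6KO (geometric means of 3 libraries). Against WT the log2 ratio of Nanog to Pou5f1 differed by 0.41, 1.98, −0.66, 0.96 and −0.71 in these genotypes; with Sox2 as the reference the Pcgf-6KO value was 0.26, above 0. Sox2 kept to Pou5f1 more closely in Ring1a/b-dKO, at 23.0% against 22.2% in WT. That difference of 0.05 had overlapping libraries (exact two-sided permutation p = 0.2), while in Pcgf-4KO the ratio was higher, at 27.7%, and in Pcgf-6KO lower, at 11.4%. Sall4 was at 7.95% of Pou5f1 in WT and 20.5% in Pcgf-4KO, 11.8% in Ring1a/b-dKO and 13.5% in Pcgf-6KO. Of the 15 ratio comparisons with WT, 14 had libraries that did not overlap and gave an exact permutation p of 0.1 each, the smallest that 3 against 3 libraries can give, so none can pass 0.05. In absolute TPM, Nanog was below Sox2 in every WT library and above it in every Ring1b-KO library, and Sall4 was above Sox2 in Pcgf-6KO alone.

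**Figure D4:**
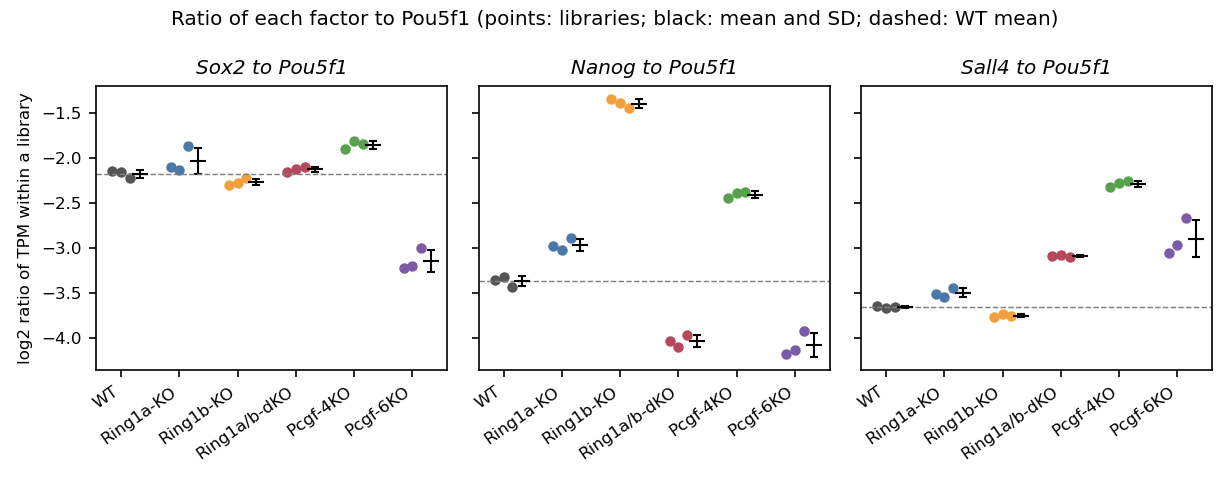
Log2 ratio of Sox2, Nanog and Sall4 to Pou5f1 within each library (points), with the group mean and SD in black and the WT mean dashed. Nanog to Pou5f1 is highest in Ring1b-KO (1.98 above WT), Sall4 to Pou5f1 is highest in Pcgf-4KO (1.37 above WT), and Sox2 to Pou5f1 is lowest in Pcgf-6KO (−0.97 from WT).

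The core factors act on shared targets, genes whose enhancers Oct4 and Sox2 are known to bind together. Of the 20 in the list, all at 1 TPM or more in WT, 8 were higher and 5 lower in Ring1a-KO (median difference 0.14) and 10 higher and 8 lower in Ring1b-KO (median 0.07, or −0.08 under median ratio scaling). In Ring1a/b-dKO 5 were higher and 13 lower (median −0.48), in Pcgf-4KO 5 and 12 (median −0.34) and in Pcgf-6KO 3 and 17 (median −1.39). Median ratio scaling left 1 higher and 17 lower in Ring1a/b-dKO, 3 and 14 in Pcgf-4KO. These counts stand beside the shares of all genes called in each direction and the medians of all genes given above. With a single Ring1a-KO library, replicate 1, the number lower in Ring1a-KO was 3.

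Tdgf1, the gene of the Nodal co-receptor Cripto, read 693 ± 3.66 TPM in WT, 949.8 ± 5.72 in Ring1b-KO, 154 ± 3.09 in Ring1a/b-dKO, 156 ± 1.98 in Pcgf-4KO and 32.5 ± 1.39 in Pcgf-6KO. Like Nanog, it was thus called higher in Ring1b-KO (0.45) and lower in Ring1a/b-dKO (−2.16), and the interaction was −2.51 (adjusted p = 2.26e-13). Lefty2, a Nodal antagonist, read 136 ± 5.61 TPM in WT, 407 ± 18.2 in Ring1b-KO, 81.5 ± 1.52 in Ring1a/b-dKO and 5.61 ± 1.33 in Pcgf-6KO. Its interaction was −3.68 (adjusted p = 1.27e-10), into which a Ring1a-KO level above that of WT also enters. Lefty1, a second Nodal antagonist, fell in both Ring1b-KO (78.3 ± 2.72 TPM) and Pcgf-6KO (5.21 ± 1.24) from 194 ± 7.75 TPM. Fgf4, the ligand that drives differentiation through ERK, read 109.7 ± 4.77 TPM in WT, 41.3 ± 1.43 in Ring1a/b-dKO, 68.7 ± 1.41 in Pcgf-4KO and 11.9 ± 1.16 in Pcgf-6KO. Phc1, itself a subunit of canonical PRC1, fell from 287 ± 5.29 TPM to 114 ± 2.19 in Ring1b-KO, 70.9 ± 0.59 in Ring1a/b-dKO and 35.1 ± 5.52 in Pcgf-6KO.

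Other targets rose in some of the knockouts, as Tdgf1 and Lefty2 did in Ring1b-KO. Trp53inp1, a p53-induced gene, was at 31.7 ± 1.80 TPM in WT and rose to 62.5 ± 1.27 in Ring1b-KO, 86.9 ± 2.63 in Ring1a/b-dKO, 103 ± 1.96 in Pcgf-4KO and 123 ± 21.2 in Pcgf-6KO. Dppa5a, a marker of early embryonic cells, rose from 1794 ± 32.7 to 4761 ± 294 TPM in Ring1b-KO, but its lowest group mean, 1257 TPM, lay below that of WT. Zfp42 (Rex1), a marker of naive stem cells, rose from 56.6 ± 2.32 to 105 ± 1.91 TPM in Pcgf-4KO, and was called higher in Ring1a/b-dKO by 0.44 and in Pcgf-6KO by 0.21, but under median ratio scaling the first call was lost and the second reversed. Both stem cell markers were present in all 6 genotypes, with group means of 56.6 to 105 TPM for Zfp42 and 1257 to 4761 TPM for Dppa5a.

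Of 29 partner factors and regulators of the network, 7 were higher and 10 lower in Ring1a-KO (median 0.03), 11 and 13 in Ring1b-KO (median −0.20), 9 and 17 in Ring1a/b-dKO (median −0.38), 10 and 13 for Pcgf-4KO (median −0.07), and for Pcgf-6KO 5 and 22 (median −0.73). Under median ratio scaling the counts were 6 and 21 in Ring1a/b-dKO, 6 and 19 for Pcgf-4KO, and for Pcgf-6KO 3 and 24. The median in Pcgf-4KO was −0.38 under that scaling and −0.23 under quantile normalization. Without WT replicate 1 or Ring1a-KO replicate 2, 6 were lower in Ring1a-KO. Over all tested genes the TPM fit called more genes higher than lower in each knockout. The shares by genotype are those given above, for example 34.7% higher against 17.1% lower (Ring1b-KO). For Pcgf-6KO they were 51.7% against 22.5%. The all-gene medians of these knockouts were 0.13 (Ring1b-KO) and 0.33 (Pcgf-6KO). Mycn, a Myc family gene, fell from 211 ± 1.78 TPM to 32.5 ± 1.99 in Ring1b-KO, 22.6 ± 0.18 in Ring1a/b-dKO, 16.8 ± 1.66 in Pcgf-4KO and 9.00 ± 0.20 in Pcgf-6KO. Gbx2, a homeobox gene of the LIF response, fell from 47.5 ± 2.57 TPM to 21.4 ± 1.14 in Ring1a-KO, 13.2 ± 0.58 in Ring1b-KO, 12.4 ± 0.87 in Ring1a/b-dKO and 4.21 ± 0.75 in Pcgf-6KO. Foxd3, a forkhead factor needed for self-renewal, fell from 22.3 ± 1.20 TPM to 5.76 ± 0.51 in Ring1a/b-dKO and 3.85 ± 0.64 in Pcgf-6KO. Nr0b1 (Dax1), which binds Oct4, fell from 73.2 ± 4.68 to 10.6 ± 1.37 TPM in Pcgf-6KO.

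Some partner genes rose, although in the TPM fit more of the list were called lower than higher in every genotype. For Ring1a-KO this depended on the scaling. There 9 were higher and 9 lower once libraries were quantile normalized, and the same counts came from the fit limited to nuclear protein-coding genes. Median ratio scaling gave 8 higher and 10 lower. Tbx3, a T-box factor, read 3.58 ± 1.58 TPM in WT, 61.3 ± 0.69 in Ring1b-KO, 18.8 ± 0.50 in Ring1a/b-dKO, 40.1 ± 0.57 in Pcgf-4KO and 17.9 ± 2.84 in Pcgf-6KO. Klf4, a Krüppel-like factor, fell from 16.04 ± 0.66 to 3.34 ± 0.23 TPM in Ring1a-KO and rose to 61.3 ± 0.41 in Ring1b-KO. Tfcp2l1 rose from 18.1 ± 0.17 TPM to 51.9 ± 1.69 in Ring1b-KO and 60.9 ± 3.00 in Pcgf-4KO, and Tcl1, an Akt co-activator, rose from 19.8 ± 0.76 to 84.2 ± 2.65 TPM in Ring1b-KO. Tbx3 was also called higher in Ring1a/b-dKO, at 2.16, where Nanog fell.

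**Figure D5:**
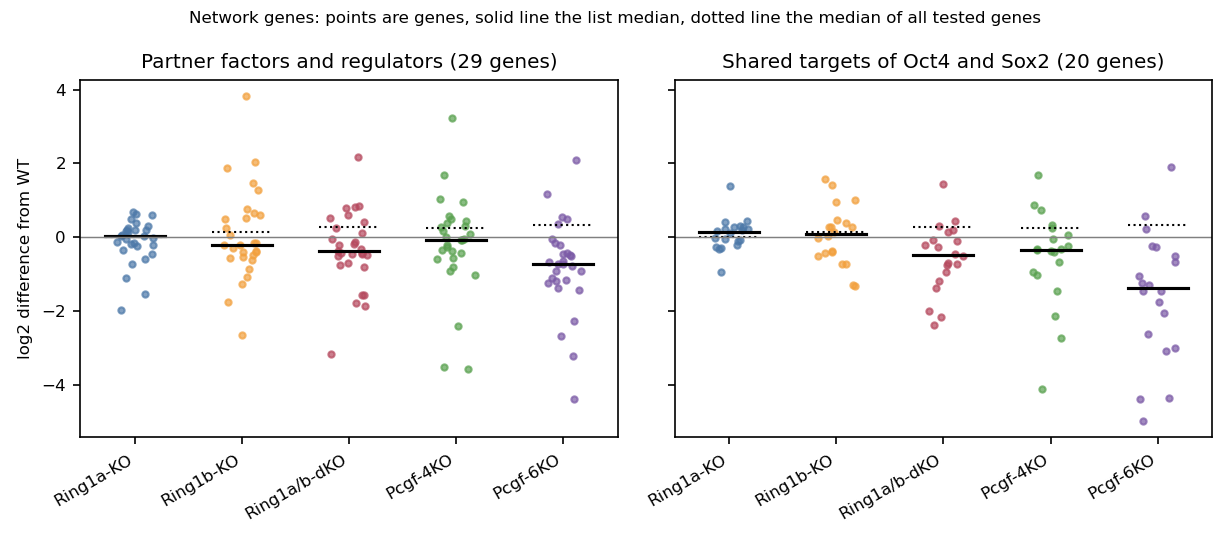
Log2 difference from WT of each gene of the partner list (left, 29 genes) and of the shared target list (right, 20 genes) in the 5 knockout genotypes; points are genes spread sideways for visibility, solid lines list medians and dotted lines the median of all tested genes. The target median runs from 0.14 in Ring1a-KO to −1.39 in Pcgf-6KO, and the partner median from 0.03 to −0.73.

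Paralogs of the factors were read from the same fit. Of the 12 tested members of a list of POU, Sox and Sall family genes outside the core, 4 were higher and 5 lower in Ring1b-KO, 7 and 2 in Ring1a/b-dKO, 5 and 3 for Pcgf-4KO, and for Pcgf-6KO 5 and 5; in Ring1a-KO 1 was higher and 1 lower. Only 10 of the 12 reached 1 TPM in WT, so the filter partly set these counts. They are to be read against the shares of all genes given above by genotype, such as 48.6% higher and 15.8% lower for Ring1a/b-dKO. Under quantile normalization the counts were 4 lower in Ring1a/b-dKO and 2 higher and 6 lower in Pcgf-4KO. In Ring1a-KO 3 were higher and 1 lower under median ratio scaling and with nuclear protein-coding genes only, while the single higher call of the TPM fit was lost without WT replicate 1 or 3 or Ring1a-KO replicate 1 or 3. Sall1, at 62.4 ± 1.12 TPM in WT, fell to 11.1 ± 0.65 in Ring1b-KO, 14.8 ± 0.79 in Ring1a/b-dKO, 11.3 ± 0.63 in Pcgf-4KO and 10.1 ± 1.36 in Pcgf-6KO. Sall3 rose from 1.20 ± 0.19 to 12.2 ± 2.46 TPM in Pcgf-6KO. Sox15, which can bind beside Oct4, rose from 18.7 ± 1.59 TPM to between 39.4 ± 1.07 (Pcgf-4KO) and 49.0 ± 3.04 (Ring1a/b-dKO) in the 4 genotypes other than Ring1a-KO. Pou3f1 (Oct6) fell from 16.7 ± 1.26 to 4.32 ± 0.24 TPM in Ring1a-KO.

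Summed levels of markers of other cell types differed between the same groups. Trophoblast genes summed to 202 to 204 TPM in WT libraries, to 362 to 386 (Ring1a-KO) and 221 to 229 (Ring1b-KO) in the single knockouts, and to 517 to 537 in Ring1a/b-dKO, 531 to 549 in Pcgf-4KO and 991 to 1008 in Pcgf-6KO (15 genes). Tpbpa was listed at 0 in all groups but Ring1b-KO, where it read 0.01 TPM. These sums do not describe the genes one by one. The median difference of the tested trophoblast genes was 0.12 in Ring1a-KO and 0.96 in Ring1b-KO, although the sum was higher in Ring1a-KO. Of 13 tested trophoblast genes 5 were higher in Ring1a-KO and 12 in each other knockout. Lower calls numbered 0 in Ring1a/b-dKO and 1 in each other knockout. Of all genes 12.3% were higher in Ring1a-KO, 34.7% in Ring1b-KO, 48.6% in Ring1a/b-dKO, 47.1% in Pcgf-4KO and 51.7% in Pcgf-6KO. Only 7 of the 13 stood at 1 TPM or more in WT, so these counts and medians were partly set by the filter. Hand1 read 2.45 ± 0.24 TPM in WT and 525 ± 16.5 in Pcgf-6KO, and Cdx2, the gene that opposes Pou5f1 in the blastocyst, 0.15 ± 0.09 and 9.33 ± 0.87. Primitive endoderm genes summed to 337 to 347 TPM in WT libraries, to 560 to 628 (Ring1a-KO) and 582 to 591 (Ring1b-KO) in the single knockouts, and to 946 to 975 in Ring1a/b-dKO, 1092 to 1119 in Pcgf-4KO and 1583 to 1897 in Pcgf-6KO (15 genes), of which Sparc alone read 261 ± 4.18 (WT) and 1409 ± 99.4 (Pcgf-6KO). Of 14 tested, 6 were higher in Ring1a-KO, 13 in Ring1b-KO and Pcgf-6KO and 12 in the other 2 knockouts. Lower calls numbered 0 in Ring1a-KO and Ring1b-KO and 1 in each of the others. The shares of all genes called higher are those given beside the trophoblast counts. Only 7 of the 14 reached 1 TPM in WT, which again partly set the counts. Gata6 and Gata4, endoderm factors that Nanog opposes, read 0.10 ± 0.04 and 0.51 ± 0.04 TPM in WT, 5.54 ± 0.24 and 9.47 ± 0.51 in Ring1b-KO, where Nanog was highest, and 9.86 ± 0.82 and 15.2 ± 0.71 in Ring1a/b-dKO.

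Mesoderm and neuroectoderm genes (14) summed to 165 to 171 TPM in WT libraries and 202 to 228 in Ring1a-KO, and to less in the other knockouts: 50.2 to 52.4 (Ring1b-KO), 100.1 to 104 (Ring1a/b-dKO), 69.8 to 70.2 (Pcgf-4KO) and 64.9 to 74.6 (Pcgf-6KO). Of 8 tested, 3 were higher and 1 lower in Ring1a-KO, 1 and 5 in Ring1b-KO, 4 and 4 in Ring1a/b-dKO, 3 and 5 for Pcgf-4KO, and for Pcgf-6KO 3 and 4. They stand beside the shares of all genes given above by genotype, such as 34.7% higher and 17.1% lower in Ring1b-KO. With nuclear protein-coding genes only, 12 passed the filter, and 8 were higher and 4 lower in Ring1a/b-dKO (median 0.76, against 0.09 in the TPM fit). In that setting the median was 0.01 in Ring1a-KO (0.14 in the TPM fit) and −0.02 in Ring1b-KO (−0.99). It turned from −0.87 to 0.12 in Pcgf-4KO and from −0.67 to 0.28 in Pcgf-6KO. Only 6 of the 14 genes reached 1 TPM in WT, so these counts and medians were partly set by the filter. With 4 higher and 4 lower in the TPM fit, the lower sum in Ring1a/b-dKO does not describe the genes one by one. Tubb3, a neuronal tubulin gene, read 121 ± 3.54 TPM of this sum in WT and 28.5 ± 0.64 in Ring1b-KO. Markers of the 2-cell-like state, which arises in a few cells of a culture, summed to at most 0.28 TPM in any WT or Ring1a-KO library and 64.0 to 68.2 in Ring1b-KO, 0.74 to 1.13 in Ring1a/b-dKO, 8.65 to 9.38 in Pcgf-4KO and 58.6 to 66.4 in Pcgf-6KO (12 genes). All 12 lay under 1 TPM in WT, so the 11 that were tested passed the filter only through knockout libraries, and their calls are not counted here. Zscan4f, the most abundant of them in Ring1b-KO, read 19.8 ± 0.83 TPM there, 13.96 ± 1.83 in Pcgf-6KO and was listed at 0 in WT. Fibroblast markers summed to between 16.8 and 37.6 TPM in every library (12 genes). Only 2 of the 5 tested reached 1 TPM in WT, so the calls of these markers are not counted either. Of the 12 genes, 10 had a mean under 1 TPM in WT, 9 in Ring1a-KO and 7 in Ring1a/b-dKO. In Ring1b-KO, Pcgf-4KO and Pcgf-6KO 8 did, and Col1a2, Col3a1 and Dcn did in all groups. The part of these other cell states in the levels of the core factors was not tested.

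Genes beside the factors (starts within 200 kb) did not share a direction with them throughout. At Nanog 9 neighbours were tested, of which 5 were higher and 2 lower in Ring1b-KO. In Ring1a/b-dKO 3 were higher and 3 lower, and in Pcgf-6KO 4 and 3, beside the shares of all genes given above by genotype. Gdf3, a TGF-beta ligand gene starting at −97402 bases from the Nanog start, fell from 83.0 ± 2.84 TPM to 57.6 ± 0.88 in Ring1b-KO, where Nanog rose, and to 35.8 ± 0.71 in Ring1a/b-dKO and 19.3 ± 0.32 in Pcgf-6KO, where Nanog fell. Slc2a3, the glucose transporter gene 94151 bases after it, rose from 147 TPM (WT) to 350.5 in Ring1b-KO, 316 in Ring1a/b-dKO, 469.9 in Pcgf-4KO and 255 in Pcgf-6KO. At Sox2, Gm38509, a long noncoding RNA, rose from 1.47 to 7.23 TPM in Ring1b-KO, where Sox2 was lower. Gm38509 was called lower, as was Sox2, in Ring1a/b-dKO (−0.60), Pcgf-4KO (−0.44) and Pcgf-6KO (−0.55). At Sall4 all 3 tested neighbours, Nfatc2, Atp9a and Zfp64, were called higher in Ring1a/b-dKO, Pcgf-4KO and Pcgf-6KO, as were 48.6%, 47.1% and 51.7% of all genes. At Pou5f1 15 neighbours were tested, and 8 were higher and 3 lower in Ring1a/b-dKO, shares near those of all genes (48.6% and 15.8%). The antisense gene Gm19553 overlaps Pou5f1 and read 0.18 to 1.09 TPM by group. The sources used here do not say if the libraries kept strand, so its reads cannot be told apart from those of Pou5f1.

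The genes whose pattern over the 6 group means was most like that of a factor were found by the root mean square difference of centred log2 values, among 9392 genes at 10 TPM or more in their highest group. For Pou5f1 these were Dpy30 (0.06), Dut (0.06), Tuba1b (0.08), Pcna (0.09) and Nasp (0.09), and for Sall4 Wiz (0.07), Psme4 (0.11), Hcfc1 (0.15), Pbrm1 (0.16) and Trib3 (0.16). For Sox2 they were Upp1 (0.15), Cecr2 (0.16), Olig2 (0.18), Spp1 (0.21) and Pcgf2 (0.21), the last a gene targeted in Pcgf-6KO. Nanog had no such close match: its nearest were Pdcd5-ps (0.42), Cobl (0.43), Rpph1 (0.53), Ly6g6e (0.57) and Platr26 (0.59). Of these, Pdcd5-ps read 21.6 ± 19.7 TPM in WT and was called in no knockout against WT, and Rpph1 read 140.4 ± 121 TPM in Ring1a-KO, so their group means are imprecise. Cobl read 11.6 ± 0.26 TPM in WT, 26.6 ± 1.24 in Ring1b-KO and 4.34 ± 0.19 in Ring1a/b-dKO. Among the factors themselves Pou5f1 and Sox2 lay closest (0.40) and Nanog and Sall4 farthest (1.15). Even so, 1169 of the 9392 genes lay closer to Pou5f1 than Sox2 did, and 87 lay closer to Sox2 than Pou5f1 did. The measure is not scaled to the range of a gene, which was widest for Nanog among the factors. All groups enter each of these values, which describe 6 means and carry no test.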

How the data were processed

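The authors deposited TPM for 56551 genes in 18 libraries of mouse embryonic stem cells, 3 for each of 6 genotypes. Per the labels' protocols, RNA was taken with Trizol after trypsin treatment and libraries were made with a TruSeq RNA kit. Per the submitters' processing notes, which state no roles, TopHat2 2.1.1, edgeR and RSEM were used with the build GRCm38.p5. Depth is not known from TPM, so no counting error is given. The 6 columns of group means in the table equal the means of the libraries and were not used. Groups and replicate numbers came from the sample titles. GENCODE vM21 (GRCm38) gave a symbol for 55227 genes.

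The 17842 genes that reached 1 TPM in 3 or more libraries were fitted as log2(TPM + 1), which understates changes of low genes, with limma 3.58.1 in R 4.3.3: 1 mean per group over all 18 libraries, an empirical Bayes step that lets the variance follow the mean, 12 residual degrees of freedom, two-sided tests and Benjamini-Hochberg adjustment within each of 16 comparisons (15 pairs of groups and the interaction of Ring1a and Ring1b). The fit was tested on simulated data. Ratios to Pou5f1 were compared by exact permutation tests. Lists were described by counts and medians, with no list test. The genes named were the 4 factors, targeted genes, list genes with the largest called differences (at most 4 in each direction per list and comparison, at 5 TPM or more in the higher group), tested genes starting within 200 kb of a factor, and the 5 most similar patterns per factor. Cdx2, Tpbpa, Col1a2, Col3a1, Dcn and levels of a named gene in further groups were added after their values were seen. Motif letters were searched in the 250 bases before RefSeq starts (GRCm38.p6). The last 14 bases of the Pou5f1 window, which lie in an annotated exon, are not printed. Alternatives were another pseudocount (0.1 TPM), no filter or a filter at 5 TPM, median ratio scaling, quantile normalization, nuclear protein-coding genes only, no trend, the replicate block, the compared groups alone and leaving out each library. The factors and lists were chosen with earlier results of these data known.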

Additional observations from a re-analysis of the deposited data

Results flagged for a closer look

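For 3 of the 4 factors the difference between Ring1b-KO and WT was unlike that between Ring1a/b-dKO and Ring1a-KO, by limma's test of the interaction. For Nanog these 2 differences were opposite in sign, 1.83 and −1.87, an interaction of −3.70. For Pou5f1 they were −0.13 and −0.82, an interaction of −0.69. For Sox2 they were −0.22 and −0.92, an interaction of −0.69. Every one of the 3 kept its direction and its call under all alternatives run. Of all tested genes 48.7% had a called interaction, 15.5% with a lower double knockout than the sum. Differences between lines or clones cannot be told apart from those of genotype.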

How the results depend on the processing

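Of 64 differences of a core factor (4 genes in 16 comparisons), 59 kept direction and call under every alternative run, and 987 of 1008 alternative values did so. Nanog in Pcgf-4KO against WT (0.12) turned to −0.20 under median ratio scaling and −0.0095 under quantile normalization, and was no longer called without a filter (0.12, adjusted p = 0.0595), without a trend (0.12) or with nuclear protein-coding genes only (0.094). Leaving out 1 library gave 0.095 to 0.14. Pou5f1 in Ring1b-KO against WT was −0.036 and not called under quantile normalization, and Pou5f1 in Ring1b-KO against Ring1a-KO was called at −0.18 under median ratio scaling. Sall4 in Ring1a/b-dKO against Ring1b-KO was called under median ratio scaling (−0.31), quantile normalization (−0.22), nuclear protein-coding genes only (−0.17) and with only the groups compared (−0.11, adjusted p = 0.0264). The Sall4 interaction was called under the same 4 settings (−0.35, −0.29, −0.28 and −0.18), and with Ring1a-KO replicate 1 alone (−0.24, an alternative chosen after seeing the data, in which the lone library is assumed to vary like the other groups), and ran from −0.22 to −0.15 when 1 library was left out. The cause of these changes was not tested. Over all genes, replicate 1 alone gave 1412 higher and 757 lower in Ring1a-KO against 2193 and 1930 with all libraries. The ratio of Nanog to Sox2 in Pcgf-6KO against WT was 0.26, where that to Pou5f1 was −0.71. Of 1540 alternative values of list counts, gene counts and ratios, 99 moved beyond 1.5 times or the spread of replicates. The replicate numbers did not pair the libraries: deviations of same-numbered libraries correlated at −0.109 to 0.071 over 45 pairs. With the replicate block the Nanog interaction was −3.70 and no call of a core factor changed. Depth is unknown, which limits what can be said of genes under 1 TPM.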
